A study of Mus musculus with 21 samples.

Results

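The 34 genes described here encode chaperones of the endoplasmic reticulum (ER), enzymes of oxidative folding, the machinery of ER-associated degradation (ERAD) and the translocon, the channel through which new proteins enter the ER. They were chosen by gene symbol as known targets and machinery of the ATF6 and XBP1 arms of the unfolded protein response, with no measured value in the rule, and 34 of the 22058 genes in the count table matched. The question is whether brains with an active integrated stress response (ISR) also carry the transcripts of an ER stress response. RNA of the anterior right brain hemisphere was compared between 9 eIF2B HOM mice (5 female, 4 male), homozygous for the Eif2b5[R191H] knock-in, and 12 wild-type mice (7 female, 5 male), all of strain C57Bl6/J and aged 93 to 114 days (eIF2B HOM) or 90 to 114 days (wild-type). The mutation is carried by every cell from the germ line, the line was kept by crossing heterozygotes, and the labels name no treatment. Batch 1, as the labels number it, comprised 8 wild-type and 4 eIF2B HOM brains from mice aged 104 days or more, and batch 2 comprised 4 wild-type and 5 eIF2B HOM brains from mice aged 104 days or less, so that age and batch went together.

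eIF2B recharges eIF2 with GTP so that translation can begin, and kinases that phosphorylate eIF2 act by blocking eIF2B. A defect in eIF2B therefore enters the ISR below the kinases, and the ISR in turn raises the transcription factor ATF4. The unfolded protein response has a branch of its own into the ISR, through the ER kinase PERK, and further branches through the sensors IRE1 (Ern1) and ATF6. IRE1 splices the Xbp1 transcript, ATF6 is cut and released, and both resulting factors switch on the genes for ER chaperones, ERAD and the translocon. Splicing of Xbp1 and cleavage of ATF6 cannot be read from counts of 3' ends, so the transcripts of their targets are the readout here.

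Many of these genes carry the ER stress response element (ERSE, the letters CCAAT and CCACG with 9 bases between) near their start, in which NF-Y is known to bind the CCAAT letters and ATF6 or XBP1 the CCACG letters. Of the 34 genes, 29 were matched by symbol to a RefSeq promoter (build GRCm38.p6, from 250 bases before to 50 bases after the gene start), and Hyou1, Manf, Derl1, Sec61a1 and Ssr2 were not matched. ERSE was found, on either strand, in 8 of the 29 (Hspa5, Hsp90b1, Creld2, Calr, Canx, Pdia6, Ero1lb and Syvn1), against 0.119% of all 32851 promoters. The related ERSE-II (ATTGG and CCACG with 1 base between) was found in Dnajb11 and Herpud1, against 0.0365% of all promoters, and the UPRE letters TGACGTGG in Vcp, against 0.676%. The UPRE ends in the reverse complement of CCACG, so the motifs share letters. The matches are shown for the classical reporters of the response, 5′ to 3′ on the strand of the gene, with the letters of the motif in capitals, and for contrast with the CARE letters (TGATGCAA), which ATF4 is known to bind with C/EBP proteins.
Hspa5 ERSE, chr2:34772020-34772048, plus strand: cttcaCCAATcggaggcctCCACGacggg
Hsp90b1 ERSE, chr10:86705633-86705661, minus strand: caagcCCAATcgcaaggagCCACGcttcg
Pdia6 ERSE, chr12:17266486-17266514, plus strand: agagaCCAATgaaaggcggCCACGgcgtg
Creld2 ERSE (reverse complement), chr15:88819515-88819543, plus strand: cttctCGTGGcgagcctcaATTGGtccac
Dnajb11 ERSE-II, chr16:22857847-22857867, plus strand: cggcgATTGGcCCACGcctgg
Herpud1 ERSE-II, chr8:94386372-94386392, plus strand: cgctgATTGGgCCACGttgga
Herpud1 CARE (reverse complement), chr8:94386312-94386329, plus strand: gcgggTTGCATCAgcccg
Slc7a11 CARE, chr3:50443667-50443684, minus strand: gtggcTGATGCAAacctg
Nupr1 CARE (reverse complement), chr7:126625568-126625585, minus strand: ccagaTTGCATCAgacag
Herpud1 was the one member with the CARE letters, which 0.895% of all promoters and 4 of 17 promoters of ISR genes held. In the windows listed, an ERSE match started 65 bases before the start of Hspa5, and the ERSE-II match of Dnajb11 lay 7 bases after its start. A match describes these letters alone and shows no binding. The genes were chosen as known targets and machinery of the ATF6 and XBP1 arms. Their shares of ERSE, ERSE-II and UPRE matches therefore describe that choice and are no test.

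**Figure D1:**
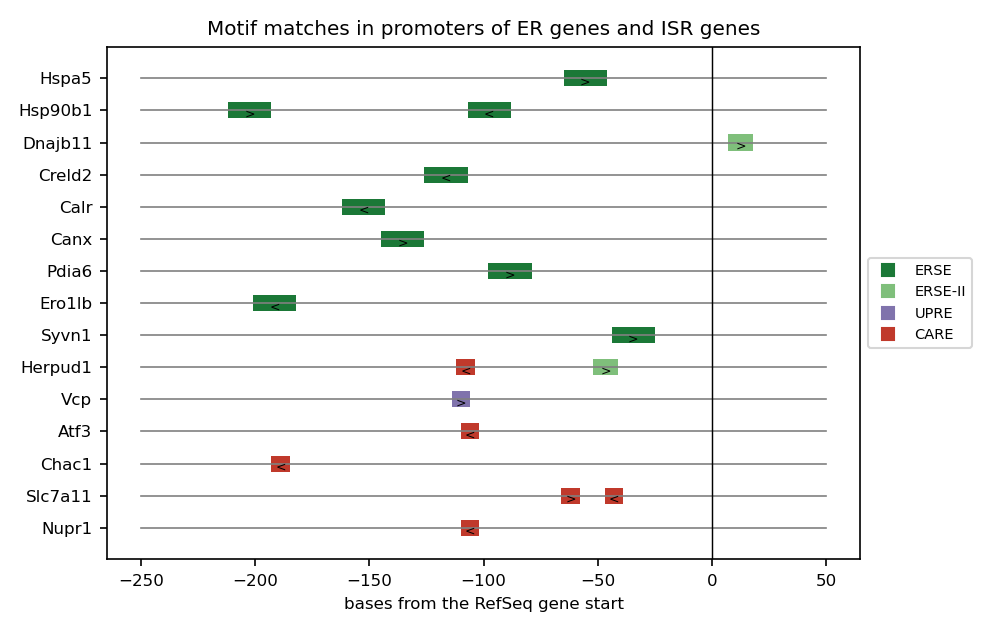
Positions of motif matches in RefSeq promoters of ER genes and of ISR genes, in bases from the gene start (vertical line at 0); each bar spans 1 match, and > or < gives its strand relative to the gene. ERSE or ERSE-II lay in the promoters of 10 ER genes, and CARE in Herpud1 and in 4 ISR genes.

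The libraries held 727018 to 2918902 counts in eIF2B HOM and 827862 to 3100141 counts in wild-type mice. Levels are given as CPM, the counts of a gene relative to the TMM-scaled total of its library. Differences are log2 fold changes of eIF2B HOM against wild-type from edgeR's quasi-likelihood test with sex and age in the model, and a gene was called at an adjusted p under 0.05 over 9192 tested genes. The point mutation was not read by these 3' counts, but the ISR transcript Atf5 separated all mice by their labels, at 128 to 207 CPM in eIF2B HOM and 11.1 to 31.0 CPM in wild-type mice. The 7 neuronal markers summed to 2350 to 3825 CPM and the 6 oligodendrocyte markers to 3954 to 10998 CPM, and the 7 choroid plexus markers were low (summed level 5.18 to 34.1 CPM). The 2 mice highest in Ssr3 stood apart in several ER genes, namely eIF2B HOM replicate 2 and wild-type replicate 8, both of batch 1.

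No ER gene was called in either direction. Of the 34 genes, 27 passed the filter on low counts, and edgeR called 0 higher and 0 lower, where 4.32% of all tested genes were called, 2.62% higher and 1.7% lower. limma with voom quality weights and DESeq2 also called 0, where they called 5.96% and 4.59% of all genes. At these shares, 0 of 27 genes is no difference to read. At an unadjusted p under 0.05, edgeR had 5 of the 27 higher (Derl1, Os9, Sel1l, Sec61a1 and Sec63) and 2 lower (Sec61g and Sec61b), which is 7 of 27 against 16.5% of all genes (7.92% higher and 8.56% lower). That number was 5 with voom, against 18.9% of all genes, and 8 with DESeq2, against 15.4%. The median log2 fold change of the 27 genes was 0.05, against -0.01 over all tested genes.

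In this fit the precision allowed sizes to be bounded for the 27 tested genes. For each of them the upper end of the 95% interval lay below a 1.5-fold increase, near the share of all tested genes, 93.4%. The highest upper end was 1.45-fold, for Sec61a1. With age and batch together in the model, the highest upper end of any ER gene was 1.52-fold. For 25 of the 27 the lower end lay above a 1.5-fold decrease, against 92.4% of all genes, the exceptions being Sec61g and Sec61b. In none of the 34 genes did the levels of the genotypes separate. Over all tested genes, the eIF2B HOM mice lay entirely above the wild-type range in 0.424% and entirely below it in 0.0218%. At shares so low, 0 of 34 genes is no difference to read. In the same mice 13 of 13 tested ISR genes rose, of 20 listed, by a median log2 fold change of 1.87. The filter by genotype can pass a gene through the eIF2B HOM mice alone. A filter of 10 counts in every mouse cannot be passed through 1 genotype. It left 6 ISR genes, and 6 were called higher, against 173 of all 6325 genes, at a median of 1.31. The looser settings do not address this point. With the filter on the full design, 17 of 18 tested ISR genes were called higher, and without a filter 17 of 20. Atf5, a transcription factor of the ISR, had medians of 178 CPM in eIF2B HOM and 22.4 CPM in wild-type mice and rose by 3.02 (SE 0.11, adjusted p = 1.4e-23). Ddit3, which encodes the factor CHOP, stood at 63.5, 90.2 and 105 CPM (lowest, median and highest) in eIF2B HOM and at 24.2, 35.9 and 44.3 CPM in wild-type mice, without overlap, and rose by 1.25 (SE 0.11, adjusted p = 4.5e-12). Atf4 stood at 104, 149 and 239 CPM and at 18.2, 58.3 and 139.7 CPM, with some overlap, and rose by 1.38 (SE 0.17, adjusted p = 1.8e-05). Trib3, an ATF4 and CHOP target, failed the filter, with a sum of 200 counts in eIF2B HOM and of 11 counts in wild-type mice. For 12 of the 13 ISR genes the lower end of the interval lay above the highest upper end of any ER gene, and the exception was Asns.

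**Figure D2:**
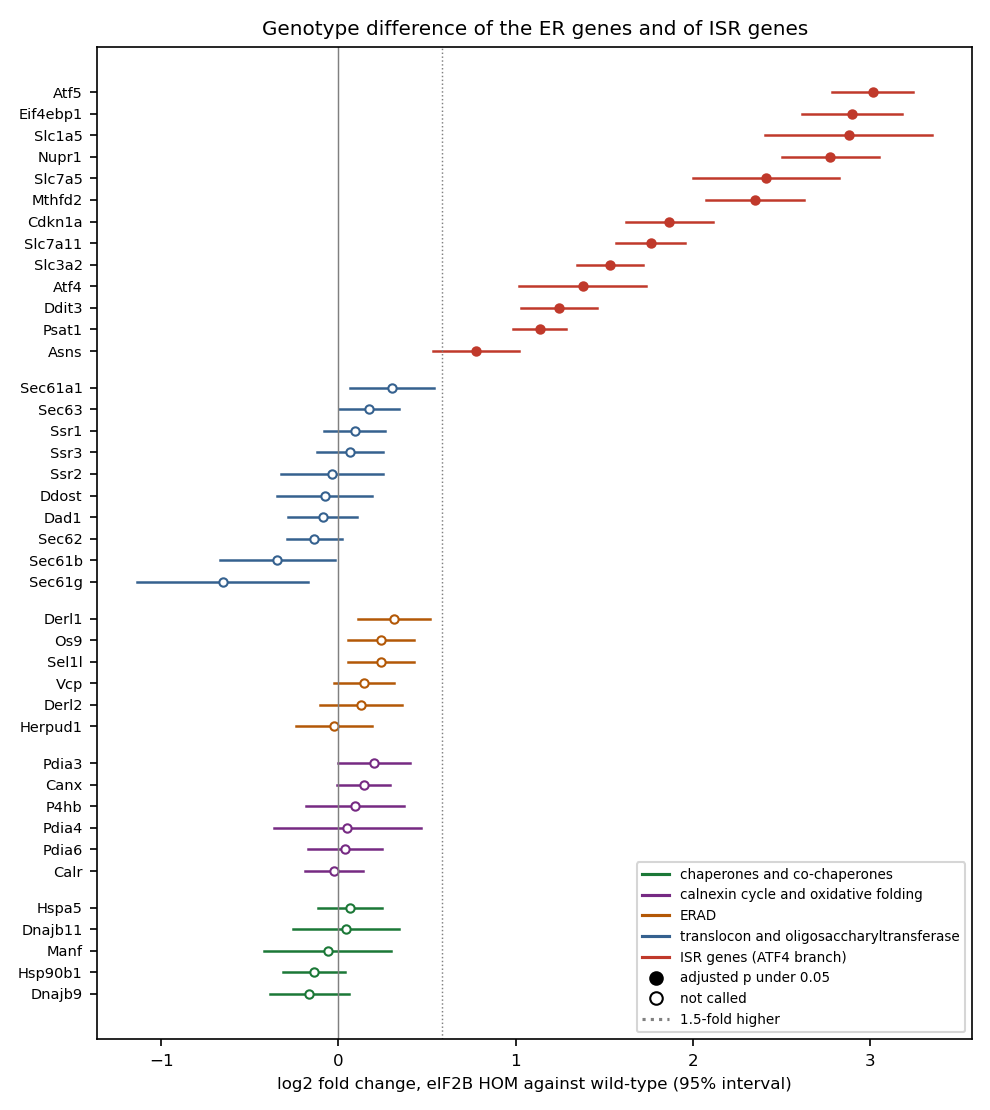
Log2 fold change of eIF2B HOM against wild-type with its 95% interval (edgeR, 9 and 12 mice) for 27 ER genes in 4 role groups and 13 ISR genes; filled points were called, open points were not, and the dotted line marks a 1.5-fold increase. The intervals of the ER genes all end below that line, and the ISR genes were called at log2 fold changes of 0.78 to 3.02.

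Among the chaperones and their co-chaperones, 5 of 8 genes were tested and their median log2 fold change was -0.06. Hspa5 encodes BiP, the HSP70 of the ER that holds its stress sensors inactive. Its level was 92.6, 169 and 208 CPM (again lowest, median and highest) in eIF2B HOM mice and 106, 150 and 267 CPM in wild-type mice. The groups overlapped throughout, and the log2 fold change was 0.06 (95% interval -0.12 to 0.25, edgeR adjusted p = 0.80), an upper end of 1.19-fold. Hsp90b1 encodes GRP94, the HSP90 of the ER. It stood at 88.2, 109 and 144 CPM in eIF2B HOM and at 102, 122 and 154 CPM in wild-type mice. Only 3 eIF2B HOM mice lay below the lowest wild-type mouse, and the difference was -0.14 (interval -0.31 to 0.04, adjusted p = 0.47).

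Dnajb9 encodes ERdj4, a co-chaperone of BiP and a target of XBP1. Its levels were 30.8, 39.6 and 55.3 CPM in eIF2B HOM and 28.9, 44.1 and 75.7 CPM in wild-type mice. The eIF2B HOM range lay inside the wild-type range, and the log2 fold change was -0.16 (interval -0.39 to 0.06, adjusted p = 0.50). Manf, a secreted ER factor that binds BiP, stood at 13.6, 19.8 and 51.8 CPM in eIF2B HOM and at 13.7, 22.4 and 49.5 CPM in wild-type mice. Most mice of both genotypes lay close together with a few far above them, and the difference was -0.06 (interval -0.42 to 0.30, adjusted p = 0.92). Dnajb11, another BiP co-chaperone, differed by 0.04 (SE 0.15).

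The other 3 chaperone genes were too low for the test. Hyou1, a nucleotide exchange factor of BiP, had a sum of 58 counts in eIF2B HOM and of 70 counts in wild-type mice, at levels of 1.36, 3.53 and 7.21 CPM and of 0.94, 3.95 and 9.12 CPM. Sdf2l1, a cofactor of ERdj3 and BiP, stood at 0.65, 2.40 and 5.20 CPM in eIF2B HOM and at 0.76, 2.35 and 4.44 CPM in wild-type mice. Creld2, an ER stress inducible disulfide isomerase, stood at 0, 2.72 and 6.93 CPM in eIF2B HOM and at 0, 1.66 and 7.94 CPM in wild-type mice. In these 3 genes the genotypes overlapped, and 1 eIF2B HOM and 2 wild-type mice had 0 counts of Creld2, which allows up to 2.48 to 3.27 CPM in those mice. Fitted without the filter, the log2 fold changes were -0.01 for Hyou1, -0.26 for Sdf2l1 and 0.45 for Creld2, with upper ends of 0.60, 0.48 and 1.195, and with SE of 0.31, 0.37 and 0.38 a 1.5-fold increase would not have been detectable at this depth in any of the 3.

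**Figure D3:**
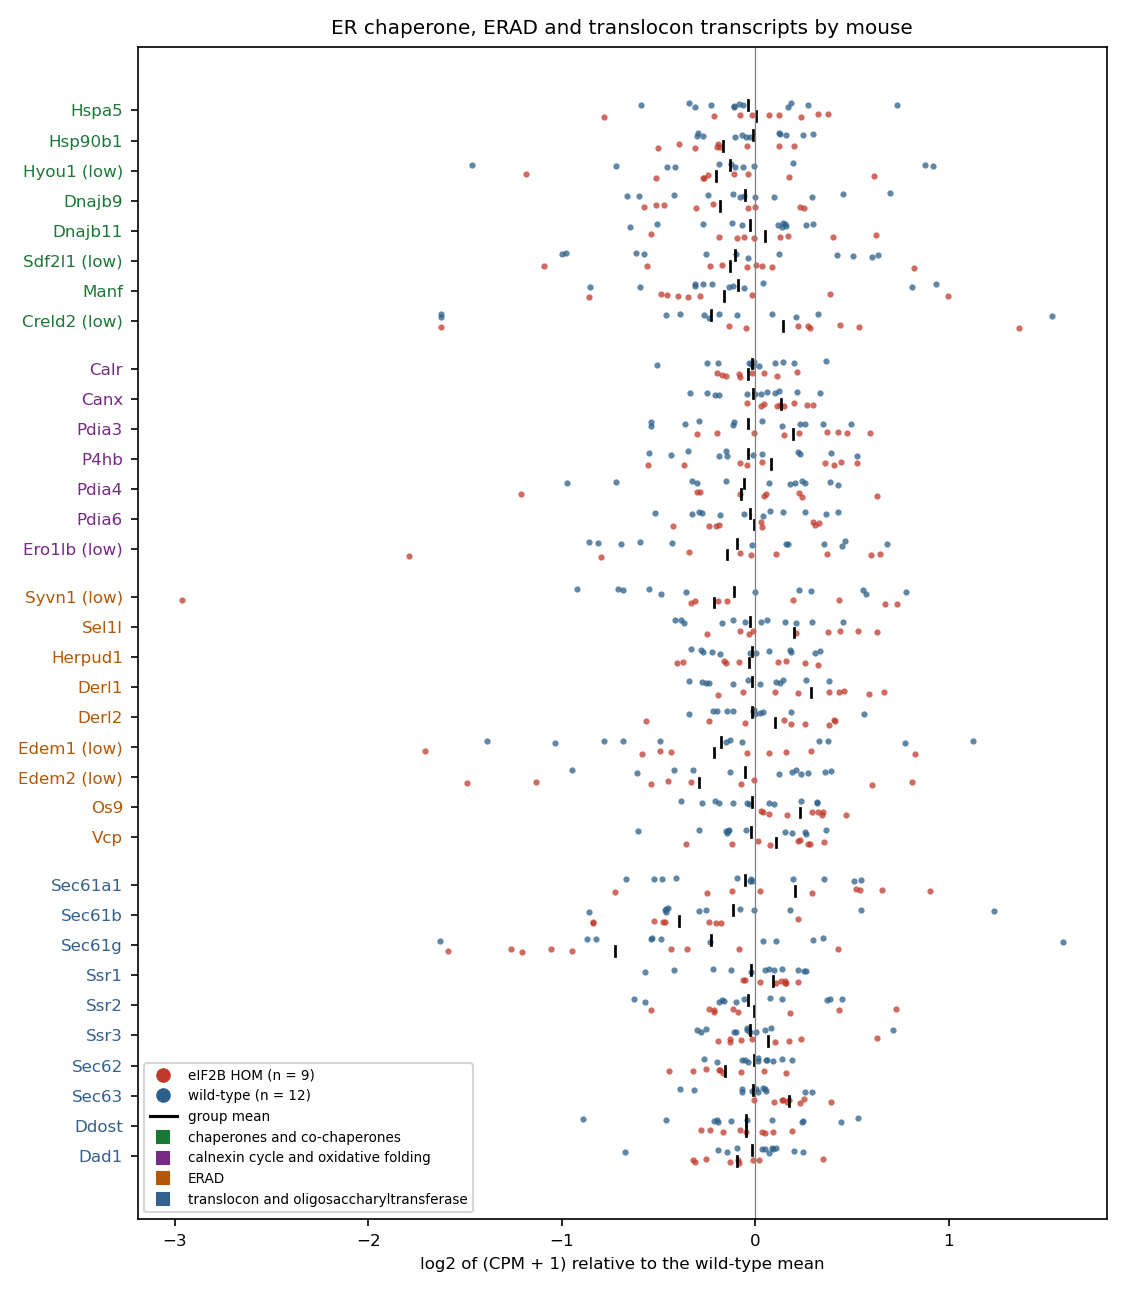
Level of the 34 ER genes in each mouse, as log2 of (CPM + 1) relative to the wild-type mean of that gene (red, 9 eIF2B HOM; blue, 12 wild-type mice; black ticks, group means), with the names coloured by role and "low" marking the 7 genes that failed the filter. The genotypes overlap in each of the 34 genes.

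The lectin chaperones and the enzymes of oxidative folding gave a median log2 fold change of 0.07 over the 6 tested of 7 genes, with 0 of them under an unadjusted p of 0.05 in edgeR and 1 in DESeq2. Calr and Canx encode calreticulin and calnexin, which hold glycoproteins until they fold, and they differed by -0.03 (SE 0.08) and 0.14 (SE 0.07). Of the protein disulfide isomerases, Pdia3 differed by 0.20 (SE 0.10), P4hb by 0.09 (SE 0.14), Pdia4 by 0.05 (SE 0.20) and Pdia6 by 0.04 (SE 0.10). Pdia4 and Pdia6 are known ATF6 targets, and their intervals ended at 0.46 and 0.25. The oxidase gene Ero1lb failed the filter with a sum of 39 counts in eIF2B HOM and of 42 counts in wild-type mice, at levels of 0, 2.40 and 4.41 CPM and of 0.90, 2.64 and 4.54 CPM. The ranges overlapped, and the 1 eIF2B HOM mouse with 0 counts allows up to 4.13 CPM. Without the filter its log2 fold change was 0.13 (SE 0.35, interval -0.57 to 0.83), and a 1.5-fold increase would not have been detectable here either.

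ERAD was the group with the highest median, 0.19 over the 6 tested of 9 genes, and 3 of these had an unadjusted p under 0.05. With batch in place of age, and also with age and batch together, this median was 0.09, with 1 gene under that p. In batch 1 alone it was 0.06, with 0 genes under that p. Derl1 encodes derlin-1, a channel component that moves misfolded proteins out of the ER, and it had the smallest p of the 27 genes. Its level was 34.5, 51.9 and 63.3 CPM in eIF2B HOM and 31.0, 39.5 and 52.0 CPM in wild-type mice. The highest 4 eIF2B HOM mice lay above every wild-type mouse, and the log2 fold change was 0.31 (SE 0.10, interval 0.11 to 0.52, edgeR adjusted p = 0.071). Os9, a lectin that brings glycoproteins to the ERAD ligase, stood at 41.4, 49.9 and 56.5 CPM in eIF2B HOM and at 30.8, 39.4 and 50.8 CPM in wild-type mice. Again 4 eIF2B HOM mice exceeded the wild-type range, and the difference was 0.24 (SE 0.09, adjusted p = 0.15).

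Sel1l, the partner of that ligase, had 81.7, 113 and 151 CPM in eIF2B HOM and 72.7, 96.5 and 133 CPM in wild-type mice. The eIF2B HOM range was shifted but overlapped, with a difference of 0.24 (SE 0.09, adjusted p = 0.15). Herpud1 is an ERAD scaffold that the ER stress response is known to raise strongly and whose promoter holds both ERSE-II and CARE letters. Its levels were 41.4, 52.0 and 69.3 CPM in eIF2B HOM and 43.6, 54.7 and 69.8 CPM in wild-type mice. These ranges were nearly the same, and the difference was -0.02 (interval -0.24 to 0.19, adjusted p = 0.95), an upper end of 1.14-fold. Vcp, the ATPase that pulls substrates from the membrane, differed by 0.14 (SE 0.08) and Derl2 by 0.13 (SE 0.12).

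The ligase gene Syvn1 itself and the mannosidase-like genes Edem1 and Edem2 were too low for the test. Syvn1 had 0, 6.04 and 12.0 CPM in eIF2B HOM and 3.13, 5.93 and 12.4 CPM in wild-type mice, and 1 eIF2B HOM mouse had 0 counts, which allows up to 4.13 CPM. Edem1, a target of XBP1, had 1.06, 5.51 and 10.9 CPM against 1.56, 5.09 and 13.6 CPM. Edem2 had 0.86, 3.15 and 8.17 CPM against 1.71, 4.82 and 5.86 CPM. In all 3 genes the ranges overlapped. Without the filter the log2 fold changes were 0.10 for Syvn1, -0.08 for Edem1 and -0.19 for Edem2, with upper ends of 0.58, 0.46 and 0.39. In that fit all 34 genes were tested, edgeR called 0 of them, against 2.43% of 16644 genes, and 8 had an unadjusted p under 0.05, against 12.4%.

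The estimates for the subunits of the Sec61 channel differed in sign, and none was called. Sec61a1 encodes the pore itself, and Sec61b and Sec61g its small tail-anchored subunits. Sec61g had 5.29, 8.82 and 24.5 CPM in eIF2B HOM and 5.12, 13.8 and 56.0 CPM in wild-type mice. Its highest value came from wild-type replicate 8, the groups overlapped over most of their range, and the log2 fold change was -0.65 (SE 0.24, interval -1.14 to -0.17, adjusted p = 0.13). Sec61b, at means of 27.0 ± 6.77 (SD, n = 9) and 34.9 ± 17.5 CPM (SD, n = 12), differed by -0.34 (SE 0.16, edgeR adjusted p = 0.26). Sec61a1, at 44.8 ± 15.2 (SD, n = 9) and 36.6 ± 10.6 CPM (SD, n = 12), differed by 0.30 (SE 0.12, edgeR adjusted p = 0.15). Sec61a1 and Sec61b were described after their values were seen.

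Over the 10 translocon and oligosaccharyltransferase genes, each of which was tested, the median was -0.06. Sec63, which recruits BiP to the channel, differed by 0.17 (SE 0.08, adjusted p = 0.28), and its partner Sec62 by -0.14 (SE 0.08, adjusted p = 0.39). The translocon-associated genes Ssr1, Ssr2 and Ssr3 lay between -0.04 and 0.09. Ddost and Dad1, subunits of the enzyme that attaches N-glycans, differed by -0.08 (SE 0.13) and -0.09 (SE 0.10). Across the 27 genes the log2 fold change had a Spearman rho of 0.49 with the exonic length of the gene, against 0.08 over all 9192 genes. It was 0.39 for the genotype difference with batch in place of age, and 0.47 for the difference between batches (0.04 and 0.11 over all genes). This is a description across genes measured in the same libraries, and Sec61b is among the shortest of the 34 (1271 bases, against 6732 bases for Sec61a1).

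Of the 10 genes with an ERSE or ERSE-II match, 7 were tested and edgeR called 0, against 4.32% of all genes, which for 7 genes is no difference to read. Their log2 fold changes ran from -0.14 (Hsp90b1) to 0.14 (Canx), with a median of 0.04, and the highest upper end was 0.34. Of the ISR genes with CARE letters, Slc7a11, the cystine transporter, rose by 1.76 (SE 0.10, adjusted p = 8.2e-18) and Nupr1, a stress-induced chromatin protein, by 2.78 (SE 0.14, adjusted p = 6.4e-20). The others with these letters, Atf3 and Chac1, failed the filter. All 13 tested ISR genes rose, most of them without a CARE match found, and Herpud1, the ER gene with CARE letters, differed by -0.02.

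Leaving out single mice moved 4 genes across the threshold. Without wild-type replicate 4 (female, 114 days, batch 1), edgeR called Derl1 (0.35, adjusted p = 0.030), Sel1l (0.30, adjusted p = 0.023) and Sec61a1 (0.37, adjusted p = 0.039) higher and Sec61g lower (-0.78, adjusted p = 0.018), while 3.06% of all genes were called higher and 2.95% lower. Derl1 was also called without eIF2B HOM replicate 4 (0.36, adjusted p = 0.037) and without eIF2B HOM replicate 6 (0.36, adjusted p = 0.037), where 2.27% and 2.21% of all genes were called higher. Leaving out both mice that stood apart, a choice made after seeing the data, gave 0 calls in edgeR (5 under an unadjusted p of 0.05), against 3.79% of all genes, with Derl1 at 0.29 (adjusted p = 0.14), Sec61g at -0.55 (adjusted p = 0.13) and Hspa5 at 0.06.

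More ER genes were called between batches than between genotypes. With genotype and sex in the model, 10 of the 27 genes were higher in batch 2 (Hspa5, Canx, Pdia3, Pdia6, Sel1l, Derl1, Derl2, Os9, Vcp and Sec61a1) and 3 were lower (Dnajb9, Sec61b and Sec61g), against 10.2% of all genes higher and 11.4% lower. Hspa5 stood at 139 ± 23.7 CPM (SD, n = 12) in batch 1 and at 192 ± 33.2 CPM (SD, n = 9) in batch 2, a log2 difference of 0.52 (SE 0.10, edgeR adjusted p = 0.00030). Vcp ran from 98.4 to 167 CPM in batch 1 and from 171 to 194 CPM in batch 2, so the batches did not overlap, and it differed by 0.40 (SE 0.08, edgeR adjusted p = 7.4e-04). Sec61g fell by 0.97 in batch 2 (SE 0.30, edgeR adjusted p = 0.022) and Sec61a1 rose by 0.60 (SE 0.14, edgeR adjusted p = 0.0033).

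Batch and age cannot be told apart here, and the mice of batch 2 were younger. The summed level of the 7 neuronal markers was 2350 to 3176 CPM in batch 1 and 2843 to 3825 CPM in batch 2, that of the 6 oligodendrocyte markers 4423 to 10998 and 3954 to 6276 CPM, and that of the 10 olfactory bulb markers 232 to 350 and 179 to 302 CPM. Their part in the batch difference was not tested. Of the mice in batch 1, 4 of 12 were eIF2B HOM, and in batch 2 5 of 9 were. With batch in place of age, Sel1l stood at 0.13, Sec61a1 at 0.15, Sec61g at -0.43, Sec61b at -0.20, Derl1 at 0.23 and Hspa5 at -0.07, and edgeR called 0 of the 27 genes, against 2.59% of all genes (2 under an unadjusted p of 0.05, against 11.9%).

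**Figure D4:**
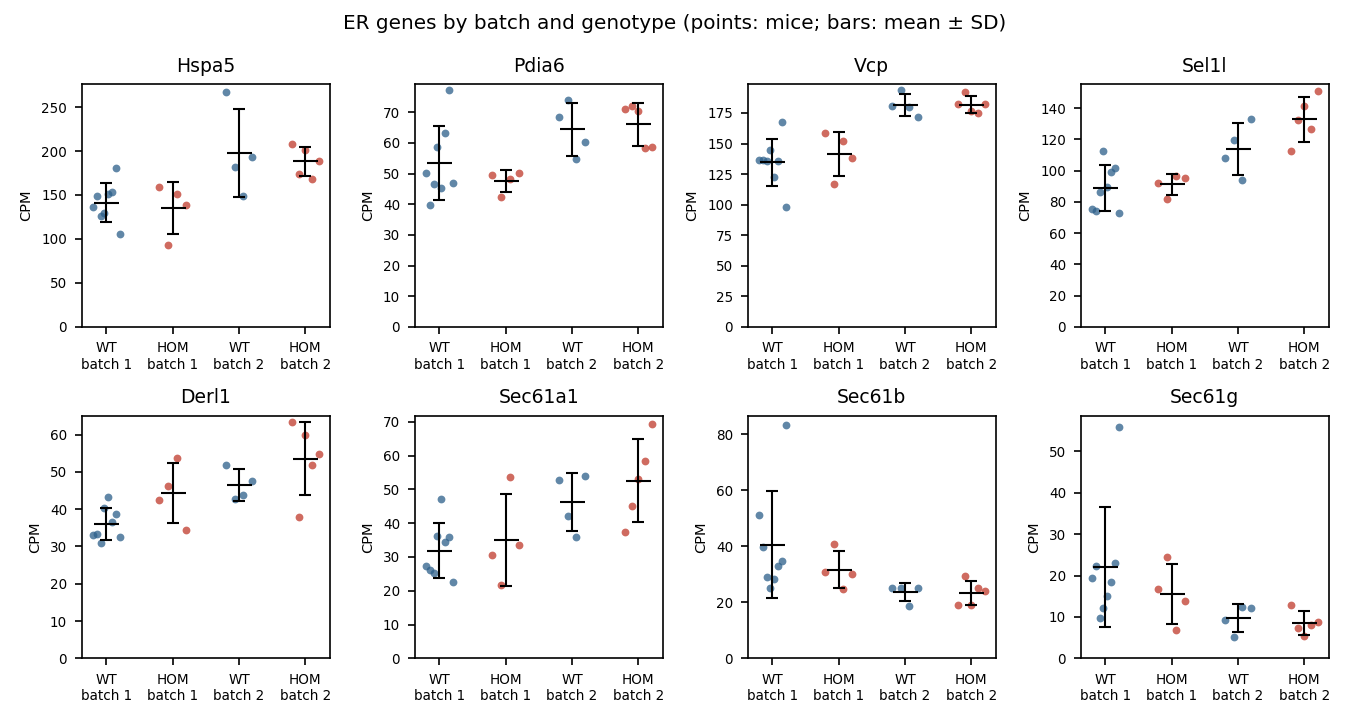
Level in CPM of 8 ER genes in wild-type (WT, blue) and eIF2B HOM (HOM, red) mice of each batch (n = 8, 4, 4 and 5 mice from left to right); points are mice and bars the mean ± SD. Hspa5, Pdia6, Vcp, Sel1l, Derl1 and Sec61a1 were higher and Sec61b and Sec61g lower in batch 2, while the genotypes overlapped within each batch.

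Within batch 1 the genotype difference was -0.05 for Hspa5, 0.27 for Derl1, 0.29 for Os9, 0.04 for Sel1l and -0.48 for Sec61g. Within batch 2, where the ages of the genotypes did not overlap, it was -0.09, 0.21, 0.11, 0.23 and -0.33, and edgeR called 0 of 27 genes in batch 1, against 0.965% of all genes (3 under an unadjusted p of 0.05, against 8.93%), and 0 in batch 2, against 1.18% (0 against 8.95%). The genotype by batch and genotype by sex terms called 0 of 27 genes and 0% of all genes in edgeR, with 0 of the 27 under an unadjusted p of 0.05, against 3.55% and 2.74% of all genes. Between males and females edgeR called 0 of 27 genes, against 0.0326% of all genes (3 under an unadjusted p of 0.05, against 4.35%).

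Other genes of the ER stress machinery were counted against the same share of all tested genes, 4.32% called and 16.5% under an unadjusted p of 0.05 in edgeR. Of 13 sensors and transducers 9 were tested and edgeR called 0 (0 under an unadjusted p of 0.05, and 0 called by voom and DESeq2). Xbp1 stood at 9.65, 14.7 and 23.2 CPM in eIF2B HOM and at 6.6, 19.4 and 43.3 CPM in wild-type mice, a difference of -0.31 (SE 0.18, adjusted p = 0.41), and Atf6 differed by 0.09 (SE 0.10). Ern1 and Eif2ak3, which encode IRE1 and PERK, failed the filter at medians of 3.57 and 2.72 CPM in eIF2B HOM and 2.35 and 2.99 CPM in wild-type mice. Creb3l1, which encodes the ER-membrane transcription factor OASIS, also failed it and is named after its values were seen. It stood at 5.18, 9.91 and 11.03 CPM in eIF2B HOM and at 0, 2.28 and 3.77 CPM in wild-type mice. The genotypes did not overlap, and without the filter Creb3l1 rose by 1.84 (SE 0.27, edgeR adjusted p = 2.4e-07).

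Of 21 further folding genes 18 were tested, and of 22 further ERAD genes 20, and edgeR called 0 in both lists, with 3 and 4 genes under an unadjusted p of 0.05, near the share of all genes. DESeq2 called 0 in both, and voom called Tmx1, a membrane disulfide reductase (0.29, adjusted p = 0.05 after rounding), named after its values were seen. Of 34 further genes of translocation, glycosylation and ER export, 31 were tested, 1 was higher and 1 was lower, near the 2.62% and 1.7% of all genes, and voom also called Stt3b, an oligosaccharyltransferase catalytic subunit, higher (0.38, adjusted p = 0.041), likewise named after its values were seen. Kdelr1 encodes a receptor that returns escaped chaperones from the Golgi to the ER. It stood at 68.9, 81.1 and 88.2 CPM in eIF2B HOM and at 49.5, 61.9 and 71.2 CPM in wild-type mice. In 8 of 9 eIF2B HOM mice it lay above every wild-type mouse, and it rose by 0.34 (SE 0.08, adjusted p = 0.0076), or 0.33 within each batch. With batch in place of age, edgeR called 1 gene of the list higher (adjusted p = 0.020) and 0 lower, against 183 and 55 of all 9192 genes. With age and batch together in the model, the adjusted p of Kdelr1 was 0.087. In that fit 0 genes of the list were higher and 2 were lower, against 166 and 80 of all 9192 genes. The 2 were Tusc3 (-0.58, adjusted p = 8.3e-04) and, named after its values were seen, the signal peptidase subunit gene Spcs1 (-0.36, adjusted p = 0.046). Tusc3, an oligosaccharyltransferase subunit, had 63.4, 86.7 and 120 CPM against 81.1, 102 and 174 CPM and fell by 0.38 (SE 0.11, adjusted p = 0.041), with 4 eIF2B HOM mice below the wild-type range. With batch in place of age, its adjusted p was 0.17.

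A few oligodendrocyte and astrocyte markers differed with genotype as well. None of the tested neuronal, microglial, endothelial, olfactory bulb, striatal or blood markers was called by edgeR. The summed oligodendrocyte markers were 3954 to 6907 CPM in eIF2B HOM and 4430 to 10998 CPM in wild-type mice, and 2 of 6 were lower, against 1.7% of all genes, among them Mbp, a myelin protein gene, which fell by 0.49 (edgeR adjusted p = 5.6e-04). Of the 6 astrocyte markers 1 was higher, against 2.62% of all genes (Gfap, 0.78). None of the 6 oligodendrocyte and 6 astrocyte markers was at 0 in every mouse. In bulk tissue, fewer cells of a type and less RNA per cell cannot be told apart, and the part of these shifts in the ER gene values was not tested.

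From mouse to mouse, the ATF6 target chaperones were compared with Hspa5 over 21 mice, after centring each gene within genotype and batch. Of 6 pairs, Pdia6 (Pearson r = 0.49, permutation p = 0.024, Spearman rho = 0.40, p = 0.083) and Pdia4 (r = 0.46, permutation p = 0.033, rho = 0.52, p = 0.024) had the highest r with Hspa5, and Calr followed (r = 0.38, permutation p = 0.099, rho = 0.44, p = 0.052). Adjusted over the 6 pairs the p of Pdia6 and Pdia4 was 0.098 for r in both, and without the 2 mice farthest in Hspa5 r was 0.49 and 0.44. Hsp90b1 had r = -0.07 (permutation p = 0.80). No pair passed the threshold.

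Within the 9 eIF2B HOM mice, 6 ER genes were compared with Atf5, the ISR transcript, after centring within batch. Mice with more Atf5 had less Hsp90b1 (r = -0.95, exact permutation p = 0.0014, adjusted 0.0083; rho = -0.88, adjusted 0.041). The same held for Dnajb9 (r = -0.84, exact permutation p = 0.0042, adjusted 0.0083; rho = -0.82, adjusted 0.041) and, by r, for Manf (r = -0.93, exact permutation p = 0.0028, adjusted 0.0083; rho = -0.78, adjusted 0.057). Without the 2 mice farthest from the median in Atf5, r was -0.81, -0.82 and -0.72. Hspa5 gave r = 0.65 (exact permutation p = 0.13), which became -0.12 without those 2 mice, and Pdia4 and Herpud1 gave -0.33 and -0.42 (-0.79 and 0.14 without those 2 mice). In batch 2 Atf5 also went with sex and age. It stood at 156 and 138 CPM in the males of 101 and 104 days. The females of 93 days had 183 to 202 CPM. In batch 1 Atf5 stood at 207, 173, 178 and 128 CPM in the mice of 105, 108, 113 and 114 days. Hsp90b1 rose with age in these mice, at 88.2, 94.97, 109 and 136 CPM. In batch 2 Hsp90b1 stood at 121 and 144 CPM in those males and at 101 to 110 CPM in the females. Age was not part of the centring, so its part in these relations was not tested. Centred within batch and sex, a choice made after seeing the data, r was -0.93 for Hsp90b1, -0.87 for Dnajb9 and -0.85 for Manf, and the exact permutation p adjusted over the 6 pairs was 0.22 for each. That centring leaves 48 orders of the mice, so its smallest possible p is 0.021. Each batch holds too few eIF2B HOM mice (4 and 5) for a value of its own.

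**Figure D5:**
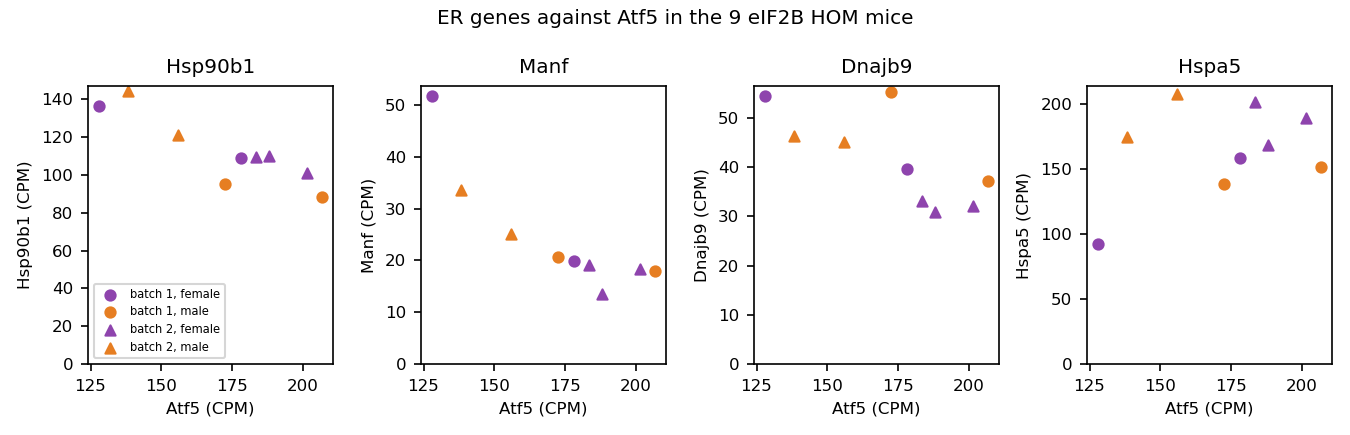
Level of Hsp90b1, Manf, Dnajb9 and Hspa5 (CPM) against Atf5 (CPM) in the 9 eIF2B HOM mice, by batch (shape) and sex (colour). Hsp90b1 and Manf were highest at the lower end of the Atf5 range of 128 to 207 CPM, where the batch 2 males and eIF2B HOM replicate 2 lie, and Dnajb9 was highest in 2 mice of batch 1.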

How the data were processed

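RNA of 21 mice was sequenced from 3' ends with unique molecular identifiers, used to remove PCR copies. The authors trimmed the reads with skewer, aligned them with STAR to GRCm38.p6 and counted them per gene with featureCounts of Subread 1.6.2. The deposited raw counts cover 22058 genes, and from 100 counts upward each value (100% of them) had been rounded to 2 significant digits. The deposited table of normalized values was not used.

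The counts were fitted in R 4.3.3 by the quasi-likelihood test of edgeR 4.0.16, after filterByExpr with genotype as the group and TMM scaling, with robust dispersion and the terms genotype, sex and age. P-values were adjusted by Benjamini-Hochberg over 9192 genes, and SE is the size divided by the square root of F. The batch term replaced age where batches were compared. Correlations used log2 CPM with a prior count of 2 and 2-sided permutation tests, of 100000 draws or exact within the 9 eIF2B HOM mice. Alternatives were limma 3.58.1 voomWithQualityWeights, DESeq2 1.42.0, other scaling factors, filters and covariates, each batch and sex, and leaving out mice. No source assigns mice to litters, so none were paired.

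Genes given by mouse or by range were the 4 members with the smallest p, 7 classical reporters (Hspa5, Hsp90b1, Dnajb9, Sdf2l1, Manf, Creld2 and Herpud1), the members that failed the filter, called genes of the other lists, 4 sensors and 4 ISR genes. The members and lists were chosen with earlier results of these data known. Promoters are RefSeq sequences of build GRCm38.p6. Some listed genes, Selenos and Drd1 among them, are not analysed or not reported here.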

Additional observations from a re-analysis of the deposited data

Results flagged for a closer look

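In 4 of the 34 genes 1 of the 9 eIF2B HOM mice lay far from the others, by the gap to the nearest mouse as a share of the range of the group (Dixon's test, which chance passes in about 1 in 20 groups). Ssr3 was 150 CPM in eIF2B HOM replicate 2 (female, 114 days, batch 1), with the next mouse at 114 CPM (gap 0.544 of the range). Dad1 was 95.3 CPM in the same mouse, with the next at 75.6 CPM (gap 0.552). Sdf2l1 was 5.20 CPM, or 6 counts, in eIF2B HOM replicate 5 (male, 101 days, batch 2), with the next at 2.72 CPM (gap 0.544). Creld2 was 6.93 CPM, or 11 counts, in eIF2B HOM replicate 9 (female, 93 days, batch 2), with the next at 3.47 CPM (gap 0.4997).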

How the results depend on the processing

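Across 37 alternatives, 990 of 996 values of the 27 tested ER genes stayed on their side of the threshold, 6 crossed it, each with a single mouse left out as given above, and 0 called values changed sign. The sign of 12 genes was kept throughout. The count of ER genes called was 0 in both directions under each alternative that kept every mouse or left out a whole batch, a sex or both mice that stood apart, and it ran from 0 to 3 higher and from 0 to 1 lower without single mice. The median log2 fold change of the 27 genes was -0.04 with age and batch together, and between 0.00 and 0.10 in the other fits that left out no single mouse. The highest upper end of an interval passed a 1.5-fold increase with the filter on the full design (0.61, log2), with genotype alone (0.65), with age and batch (0.61), in batch 1 (0.62), in batch 2 (0.69), in females (0.71), in males (0.80) and without a filter (1.195). Over all genes, 241 were higher and 156 lower. Higher calls were 151 with genotype alone, 75 in batch 1, 95 in batch 2, 123 in females and 74 in males. Lower calls were 253 with voom, 46 with genotype alone, 55 with batch in place of age, 80 with age and batch, 12 in batch 1, 22 in batch 2, 31 in females and 27 in males. Without single mice the calls ran from 183 to 280 higher and from 86 to 270 lower, with 92 lower without eIF2B HOM replicate 1, 86 without eIF2B HOM replicate 8 and 270 without wild-type replicate 4. Subsets hold fewer mice, and otherwise the cause was not tested. Of 6 genes, 3 passed the threshold in their relation to Atf5 by Pearson's r, and 0 did when centred within batch and sex, which leaves 48 orders. No paired analysis was possible because the labels give the mice no replicate numbers or litters. The replicate numbers used here count the mice of each genotype in sample order. Depth limits the 7 genes that failed the filter.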
